A study of Mus musculus with 12 samples.

Results

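The goblet cell mucus genes are 10 transcripts, out of 39086 genes counted, that serve as markers of the mucus-secreting cells of the intestine: Muc2, Tff3, Fcgbp, Clca1, Zg16, Agr2, Spink4, Spdef, Guca2a and Ccl6. The rule lists them by name. All 10 were found in the count table and all 10 passed the filter on low counts, which left 17087 genes for testing. Their levels were read in all 12 libraries of a study that asked how a high fat diet changes gene expression in enteroendocrine cells (EEC), which release the hormones of the gut.

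Every library came from jejunal villi of male mice on a C57BL/6N background, aged 12 weeks and carrying 1 Neurog3 eYFP allele (Neurog3eYFP/+). Neurog3 starts endocrine differentiation, so the eYFP reporter labels EEC. The mice ate a normal diet (Safe D04) throughout or were moved at 8 weeks of age to a high fat diet (D12492) for 4 weeks. Villi were enriched with EDTA, dissociated with dispase and sorted by fluorescence into an eYFP-positive fraction (EEC) and an eYFP-negative fraction (non-EEC), with 3 libraries for each of the 4 combinations of diet and fraction. The reporter allele was shared by all 4 groups, so no group was free of it. There were 3 mice per diet by the labels, fewer than the libraries of a diet, so libraries share mice. The labels do not say whether an EEC and a non-EEC library of the same number came from 1 mouse. The main fit treats the 12 libraries as independent, and its p-values measure the spread between these libraries. The non-EEC fraction is every sorted cell without the reporter, goblet cells and other cells alike. No fraction was sorted for goblet cells.

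Goblet cells make the mucus that covers the villi. MUC2, a very large gel-forming glycoprotein, is folded and cross-linked in the endoplasmic reticulum, heavily O-glycosylated in the Golgi, packed into granules and released, and it then swells into a gel. FCGBP, CLCA1, ZG16 and TFF3 are released with it and become part of the mucus, AGR2 acts on mucin folding inside the cell, and SPDEF is a transcription factor of goblet cell maturation.

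The promoters of 3 members are shown because Muc2 and Fcgbp moved together across the libraries while Agr2 did not follow them. They are the RefSeq sequences of build GRCm38.p6 (mm10), each with 250 bases before and 50 after the annotated start, 5′ to 3′ on the strand of the gene, and 6 of the 10 members had an entry (Muc2, Fcgbp, Agr2, Spdef, Guca2a and Ccl6). Capitals mark the motifs found in a search of both strands. The Muc2 window is chr7:141690090-141690389 (plus strand), the Fcgbp window is chr7:28070986-28071285 (plus strand) and the Agr2 window is chr12:35992675-35992974 (plus strand).
Muc2: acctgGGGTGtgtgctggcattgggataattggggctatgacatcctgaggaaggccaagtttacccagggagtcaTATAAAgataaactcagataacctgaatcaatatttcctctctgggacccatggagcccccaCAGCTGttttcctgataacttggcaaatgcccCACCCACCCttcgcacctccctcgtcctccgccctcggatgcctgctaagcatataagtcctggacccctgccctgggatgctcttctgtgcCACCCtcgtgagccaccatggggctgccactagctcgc
Fcgbp: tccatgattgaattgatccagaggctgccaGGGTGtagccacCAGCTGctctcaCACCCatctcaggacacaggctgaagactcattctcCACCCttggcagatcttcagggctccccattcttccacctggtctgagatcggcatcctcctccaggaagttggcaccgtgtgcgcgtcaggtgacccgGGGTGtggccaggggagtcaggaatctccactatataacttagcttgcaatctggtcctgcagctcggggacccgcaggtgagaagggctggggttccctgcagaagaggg
Agr2: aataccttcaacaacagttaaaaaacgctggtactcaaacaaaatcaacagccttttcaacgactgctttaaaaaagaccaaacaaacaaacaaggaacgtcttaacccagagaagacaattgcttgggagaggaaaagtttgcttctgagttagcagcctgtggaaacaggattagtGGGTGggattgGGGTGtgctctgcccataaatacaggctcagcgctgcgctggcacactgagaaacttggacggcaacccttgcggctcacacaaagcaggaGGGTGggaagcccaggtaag
The motifs searched were TATAAA (the core promoter box), CAGCTG (an E-box of the ATOH1 type), CCGGAT (SPDEF type ETS site), TGTTTAC (forkhead site), CAATAAA (CDX site), CACCC (KLF site) and ACGTG (core shared by XBP1 and ATF6 sites). CAGCTG, a palindrome, was in the windows of Muc2, Fcgbp and Guca2a, against 16.3% of 32851 promoter windows of the same length. In Muc2 it began 112 bases before the start and in Fcgbp 208 bases before it. TATAAA was in the Muc2 window alone among the 6, where it began 174 bases before the start, and in 13.6% of all windows. Other TATA-like letters, also present in the Muc2 and Fcgbp windows, were not searched. CACCC was in the windows of Muc2, Fcgbp and Agr2 and also in 57.5% of all windows, so its presence there is common. TGTTTAC was found in Guca2a (3.65% of all windows) and ACGTG in Spdef (19.6%), and the Ccl6 window held none of the 7 motifs. A match describes letters only, and binding was not measured in this study.

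Total counts per library were 9543183 to 29054281. Neurog3, which checks the sort, was at 24.5 to 274 CPM (read counts scaled to a common library total) in the EEC libraries and at 0.0779 to 1.19 in the non-EEC libraries. Marker sums also differed between the diets in the non-EEC fractions. In bulk libraries, the share of a cell type and the level per cell cannot be told apart. Summed over 13 T cell markers, the normal diet non-EEC libraries had 13346 to 39997 CPM and the high fat non-EEC libraries 79.3 to 870. Summed over 15 enterocyte markers, they had 4995 to 24674 and 46402 to 83450 CPM. In normal diet EEC the T cell sum was 749 to 4470 CPM against 44.6 to 229 in high fat EEC. Normal diet non-EEC replicate 1 stood apart from the other non-EEC libraries: it had the highest summed level of the members, the highest tuft cell marker sum of the 12 libraries (561 CPM) and an EEC marker sum of 2590 CPM, where the other non-EEC libraries had 92.4 to 593. Within its group it also had the highest enterocyte marker sum, 24674 CPM against 5139 and 4995. Its T cell marker sum was the lowest of the group, 13346 CPM against 23596 and 39997. Results on the members that rest on this library are given with and without it, and "without replicate 1" below always refers to it. This library was singled out with the member values known and in part by them. Fold changes and p-values without it are therefore not independent of that choice. CPM values use the total count of each library, with no further scaling; fold changes come from a fit that scaled libraries with TMM factors of 0.732 to 1.22.

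**Figure D1:**
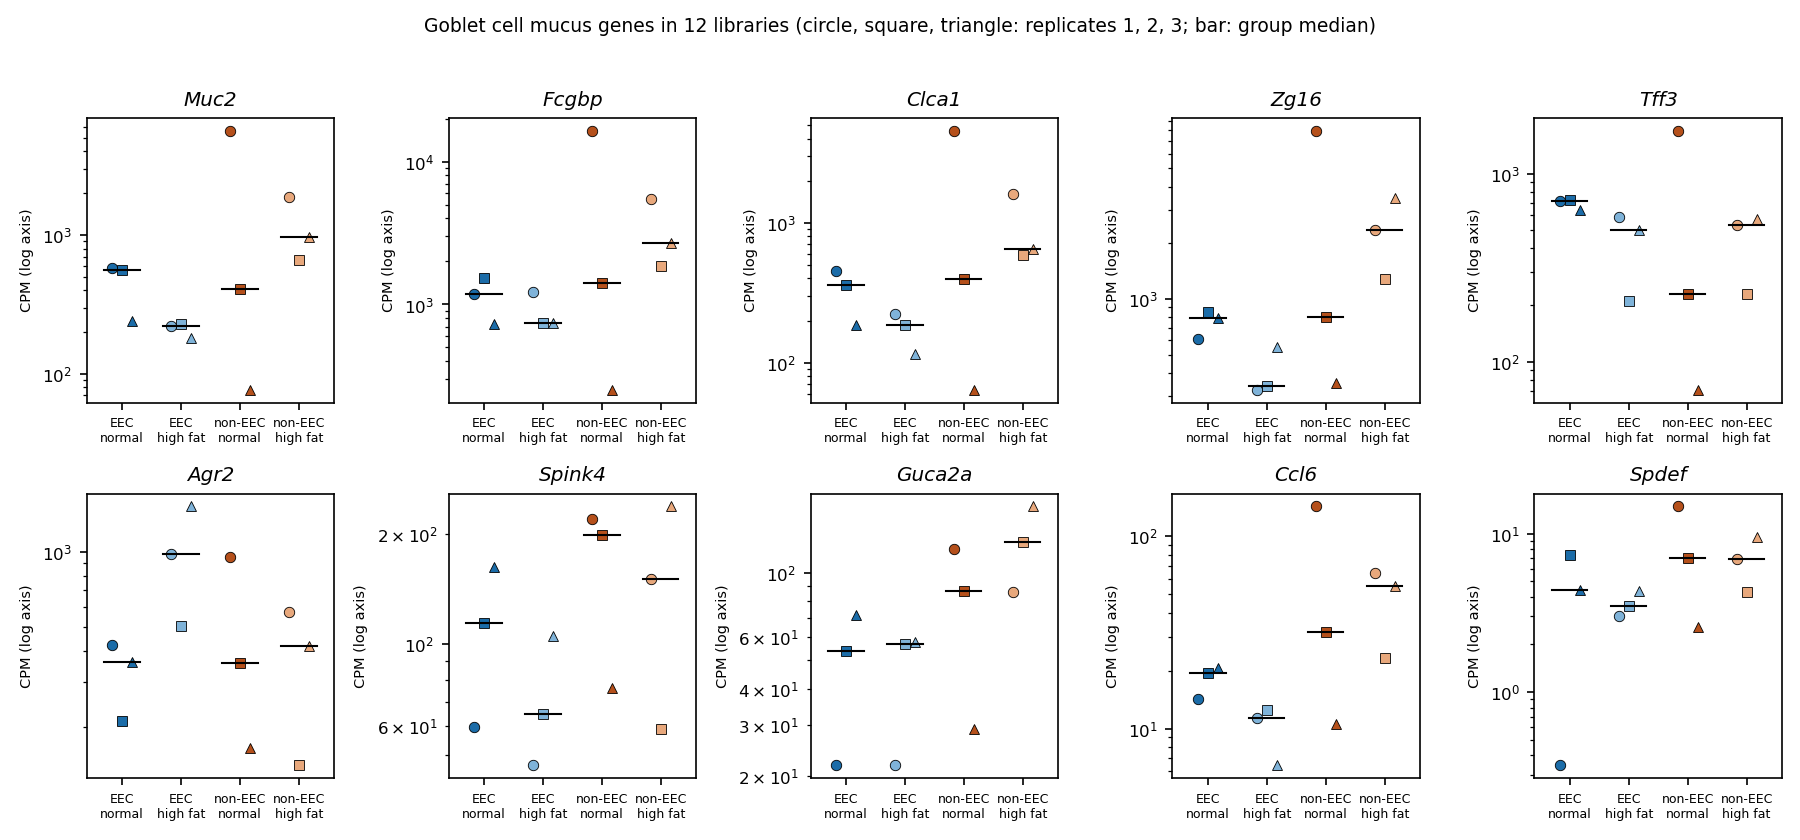
CPM of each of the 10 members (log axes, 1 panel per gene) in the 3 libraries of each group, with circles, squares and triangles for replicates 1, 2 and 3 and a bar at the group median. The circle of normal diet non-EEC is the highest point in the panels of Muc2, Fcgbp, Clca1, Zg16, Tff3, Ccl6 and Spdef, while the highest Agr2 point is a high fat EEC library.

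Over both diets, 6 of the 10 members were lower in EEC than in non-EEC: Muc2, Fcgbp, Clca1, Zg16, Guca2a and Ccl6, by 2.38-fold to 5.66-fold. Of all 17087 genes, 7.80% were called lower in this comparison. Tff3, Agr2, Spink4 and Spdef did not pass the test. The median log2 fold change of the 10 members was -1.69, beside -0.05 for all genes tested, and -0.76 beside -0.02 without replicate 1. In bulk libraries, the share of goblet cells, the level per goblet cell and transcript from other cells cannot be told apart. The members were nevertheless well above 0 in the EEC fraction, with a summed level of 2347 to 4412 CPM in the 6 EEC libraries and 1100 to 37581 CPM in the 6 non-EEC libraries (at most 12749 without replicate 1).

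Muc2 (ENSMUSG00000025515, chromosome 7, 141690340 to 141754693), the gel-forming mucin, had 582.8, 557.5 and 240.3 CPM in replicates 1, 2 and 3 of normal diet EEC and 220.7, 230.2 and 182.3 CPM in high fat EEC. In non-EEC it had 5613, 411.9 and 76.7 CPM on the normal diet and 1892, 663.1 and 974.9 CPM on the high fat diet. The 3 normal diet non-EEC libraries therefore spanned the whole range of the other 9, with the highest and the lowest value of the experiment in the same group, 73.2-fold apart. Its log2 fold change in EEC against non-EEC over both diets was -2.44 ± 0.76 (SE), with an adjusted p of 0.0358 by edgeR's quasi-likelihood test with Benjamini-Hochberg adjustment. Without replicate 1 it was -0.79 ± 0.40 (adjusted p = 0.190), no longer past the threshold.

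Fcgbp (ENSMUSG00000047730, chromosome 7, 28071236 to 28120862) encodes a large protein with von Willebrand factor D domains that joins the mucin network. It had 1189, 1525 and 730.2 CPM in normal diet EEC and 1232, 736.2 and 736.9 CPM in high fat EEC, a narrow band. In non-EEC it had 16377, 1416 and 252.1 CPM on the normal diet and 5506, 1858 and 2678 CPM on the high fat diet. The order of the libraries in non-EEC was that of Muc2. The log2 fold change over both diets was -2.28 ± 0.75 (adjusted p = 0.0453, edgeR quasi-likelihood) and -0.73 ± 0.41 without replicate 1 (adjusted p = 0.242).

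Clca1 (ENSMUSG00000028255, chromosome 3, 145003817 to 145032776), a secreted protein of the mucus that acts on the MUC2 gel, had 454.8, 356.0 and 185.0 CPM in normal diet EEC and 222.8, 184.6 and 114.9 CPM in high fat EEC. Its non-EEC values were 4524, 394.2 and 63.8 CPM on the normal diet and 1601, 592.0 and 650.7 CPM on the high fat diet. It too was lowest in normal diet non-EEC replicate 3 and highest in replicate 1 of the same group. The log2 fold change over both diets, -2.50 ± 0.76 (adjusted p = 0.0322, edgeR quasi-likelihood), became -0.95 ± 0.44 without replicate 1 (adjusted p = 0.149).

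Zg16 (ENSMUSG00000049350, chromosome 7, 127050156 to 127087328) encodes a small lectin that binds the wall of Gram-positive bacteria. It had 607.6, 846.0 and 790.3 CPM in normal diet EEC and 325.1, 341.2 and 553.0 CPM in high fat EEC. In non-EEC it had 7932, 797.9 and 355.4 CPM on the normal diet and 2338, 1282 and 3466 CPM on the high fat diet, where all 3 libraries were above every EEC library. Zg16 kept its call without replicate 1: the log2 fold change over both diets was -2.45 ± 0.64 (adjusted p = 0.0149, edgeR quasi-likelihood) and -1.14 ± 0.29 without it (adjusted p = 0.0137). The annotation has the opposite-strand gene Gm22747 within it and the strand setting of the counting is not known, so part of its count is uncertain.

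Ccl6 (ENSMUSG00000018927, chromosome 11, 83587882 to 83593087), a chemokine that is also made by myeloid cells, had 14.3, 19.6 and 20.8 CPM in normal diet EEC and 11.4, 12.5 and 6.45 CPM in high fat EEC. In non-EEC it had 143, 31.8 and 10.6 CPM on the normal diet and 64.3, 23.4 and 55.5 CPM on the high fat diet. Its order in the non-EEC libraries on the normal diet was that of the mucus proteins. It was the other member called with and without replicate 1, at -2.13 ± 0.52 (adjusted p = 0.0107, edgeR quasi-likelihood) and -1.26 ± 0.33 (adjusted p = 0.0160). The 12 macrophage and dendritic cell markers summed to 140 to 313 CPM in normal diet non-EEC and 28.7 to 87.5 in high fat non-EEC. In EEC they summed to 30.1 to 163. For 10 eosinophil and mast cell markers the sums were 313 to 407, 14.7 to 80.1 and 43.9 to 153 CPM in the same order. The part of these markers in the Ccl6 result was not tested. The gene E230016K23Rik lies on the opposite strand, which makes the Ccl6 count uncertain in the same way.

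Guca2a (ENSMUSG00000023247, chromosome 4, 119637704 to 119639471) encodes guanylin, a peptide that activates guanylate cyclase C on neighbouring epithelial cells and drives fluid secretion. It had 21.8, 53.8 and 71.8 CPM in normal diet EEC and 21.8, 56.8 and 57.9 CPM in high fat EEC. The non-EEC values were 121, 86.7 and 29.0 CPM on the normal diet and 85.7, 128 and 169 CPM on the high fat diet. Normal diet non-EEC replicate 1 was not the highest library for guanylin, in contrast to the mucus proteins. The log2 fold change over both diets was -1.25 ± 0.39 (adjusted p = 0.0371, edgeR quasi-likelihood), and without replicate 1 it was -0.96 ± 0.37 (adjusted p = 0.0842).

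Tff3 (ENSMUSG00000024029, chromosome 17, 31125306 to 31129646), a small trefoil peptide of the mucus, did not follow Muc2 between the fractions. It had 715.0, 722.7 and 639.7 CPM in normal diet EEC and 585.8, 211.2 and 502.5 CPM in high fat EEC. In non-EEC it had 1682, 229.9 and 70.8 CPM on the normal diet and 530.5, 228.5 and 572.1 CPM on the high fat diet, a range that covers all EEC values. Its log2 fold change over both diets was -0.12 ± 0.60 (adjusted p = 0.913, edgeR quasi-likelihood) and turned to 1.06 ± 0.36 without replicate 1 (adjusted p = 0.0546).

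Agr2 (ENSMUSG00000020581, chromosome 12, 35992907 to 36004087) encodes a disulfide isomerase of the endoplasmic reticulum that is needed for MUC2 production. It had 422.2, 210.0 and 362.9 CPM in normal diet EEC and 977.0, 506.4 and 1514 CPM in high fat EEC. In non-EEC it had 955.5, 357.7 and 163.6 CPM on the normal diet and 574.0, 139.9 and 418.5 CPM on the high fat diet. The 3 high fat EEC libraries were all above the 3 of normal diet EEC, and 2 of them were the highest of the 12 libraries. Over both diets the difference between EEC and non-EEC was 0.33 ± 0.47 on the log2 scale (adjusted p = 0.668, edgeR quasi-likelihood), within the spread of the libraries, and 0.87 without replicate 1 (adjusted p = 0.144).

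Spink4 (ENSMUSG00000028415, chromosome 4, 40920052 to 40931395), of the Kazal type protease inhibitor family, had 59.8, 115 and 162 CPM in normal diet EEC and 47.0, 64.6 and 106 CPM in high fat EEC. The non-EEC libraries had 219, 199 and 76.0 CPM on the normal diet and 150, 58.8 and 237 CPM on the high fat diet. Its groups overlapped throughout, and the log2 fold change of -0.92 ± 0.37 did not pass the test (adjusted p = 0.0935, edgeR quasi-likelihood), nor did -0.73 without replicate 1 (0.181). Spdef (ENSMUSG00000024215, chromosome 17, 27714352 to 27728955), the transcription factor, was the lowest member, with 0.346, 7.34 and 4.41 CPM in normal diet EEC, 3.00, 3.52 and 4.32 in high fat EEC, 14.8, 7.05 and 2.59 in normal diet non-EEC and 6.95, 4.27 and 9.46 in high fat non-EEC. These values rest on 4 to 190 counts per library, and the lowest, normal diet EEC replicate 1, on 4 counts. Its log2 fold change of -1.15 ± 0.58 did not pass the test (adjusted p = 0.178, edgeR quasi-likelihood), nor did -0.70 without replicate 1 (0.429).

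The number of called members depended on single libraries. Leaving out 1 library at a time gave 2 to 7 of 10 called, with Zg16 and Ccl6 in every one of these 12 fits. Besides normal diet non-EEC replicate 1, whose omission left 2 (7.39% of all genes lower), the count was 3 or fewer without any 1 of the 6 EEC libraries, without high fat non-EEC replicate 1 (3 called) or without high fat non-EEC replicate 3 (3 called). With a block on replicate number, which the labels do not give as a pairing, none of the 10 was called, Zg16 and Ccl6 included.

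**Figure D2:**
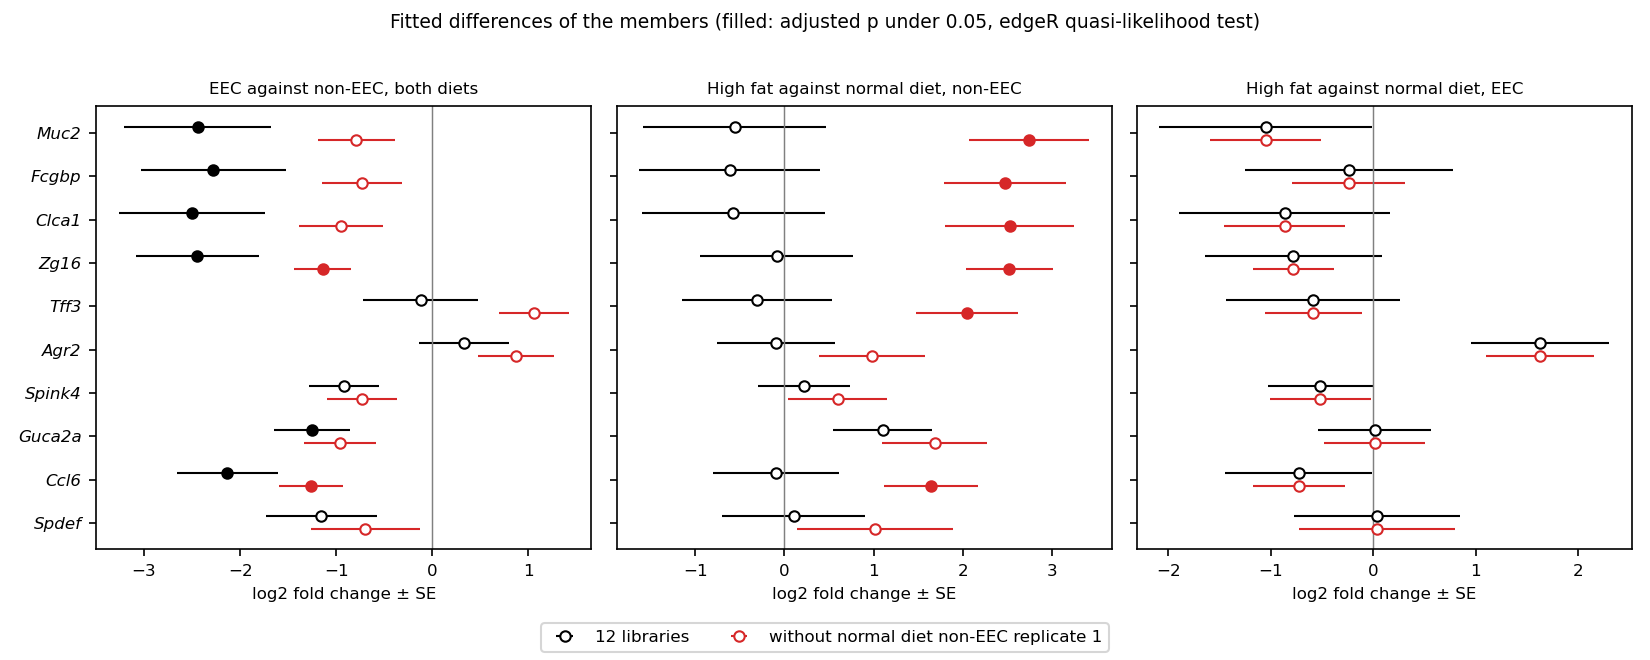
Log2 fold change ± SE of the 10 members in 3 comparisons (panels), from all 12 libraries (black) and without normal diet non-EEC replicate 1 (red), with filled points where the adjusted p was under 0.05. In the left panel 6 black and 2 red points are filled, in the middle panel 0 and 6, and in the right panel none.

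Within the normal diet, none of the 10 members was called between EEC and non-EEC, in a comparison where 4.90% of all genes were lower in EEC and 12.8% differed in either direction. By edgeR, 4 members were lower at an unadjusted p under 0.05 (Fcgbp, Clca1, Zg16 and Ccl6), as were 13.4% of all genes. After adjustment, DESeq2 called 1 of 10 lower (Fcgbp), where it called 9.14% of all genes lower, and limma-voom with quality weights called none. No member had groups that did not overlap. The log2 fold changes ran from -2.47 ± 1.07 for Fcgbp to 0.02 ± 0.84 for Tff3. Without replicate 1, Muc2 turned from -2.20 to 1.10, Fcgbp to 0.63, Clca1 from -2.36 to 0.74, Zg16 from -2.10 to 0.51 and Agr2 from -0.54 to 0.54, none of them past the threshold. Tff3 alone was then called, higher in EEC at 2.37 ± 0.58 (adjusted p = 0.0150, edgeR quasi-likelihood), where 11.3% of all genes were called higher. In that fit 9 of 15 enterocyte markers were called higher in EEC as well, and their part was not tested. With replicate 3 of normal diet non-EEC left out instead, Fcgbp and Ccl6 were called lower, where 1.26% of all genes were.

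Within the high fat diet the 3 non-EEC libraries spanned 2.85-fold for Muc2 and 2.96-fold for Fcgbp, against 73.2-fold and 65.0-fold on the normal diet. Spink4 went the other way, with 4.03-fold and 2.88-fold. Muc2, Fcgbp, Clca1, Zg16, Guca2a and Ccl6 were lower in all 3 EEC libraries than in any of the 3 non-EEC libraries, 6 members of 10 against 9.73% of all genes. For Muc2 the highest EEC library had 230.2 CPM and the lowest non-EEC library 663.1. By edgeR's quasi-likelihood test with Benjamini-Hochberg adjustment, Ccl6 was called (-2.45 ± 0.75, adjusted p = 0.0453), 1 member of 10 where 3.77% of all genes were called lower. Guca2a (-1.80 ± 0.57, adjusted p = 0.0510) and Zg16 (-2.79 ± 0.92, adjusted p = 0.0594) just missed the threshold, and Muc2 was at -2.69 ± 1.09 (adjusted p = 0.122). The fit takes its spread from all 12 libraries. Without normal diet non-EEC replicate 1, the same fold changes had smaller errors, and all 6 were called lower (6.17% of all genes), with Zg16 at an adjusted p of 0.000621 and Muc2 at 0.00635. A fit on the 6 high fat libraries only also called these 6, where it called 7.31% of 15055 genes lower. The enterocyte marker sum in these libraries was 11953 to 29690 CPM in high fat EEC and 46402 to 83450 in high fat non-EEC. The median log2 fold change of these markers was -2.37, beside -1.94 for the members, with 4 of 15 called lower and 14 of 15 without replicate 1. Of 13 Paneth cell markers none was called, with a median of -2.30. The part of these markers in the result was not tested. Leaving out other libraries gave 0 to 5 called members: 5 without normal diet non-EEC replicate 3, 2 without normal diet EEC replicate 3 or normal diet non-EEC replicate 2, and 0 without normal diet EEC replicate 2, any high fat EEC library or high fat non-EEC replicate 2 or 3. Tff3 and Agr2 overlapped between the fractions, at -0.26 ± 0.85 and 1.19 ± 0.67.

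The study's main question, the effect of the high fat diet in EEC, gave no call among the members. None of 10 passed by edgeR, DESeq2 or limma-voom with quality weights, where edgeR called 0% of all genes (0 of 17087) and, without normal diet non-EEC replicate 1, 0.404%. Only Agr2 was at an unadjusted p under 0.05 by edgeR, 1 member of 10, where 9.44% of all genes were. Its log2 fold change was 1.63 ± 0.68, or 3.10-fold higher on the high fat diet (adjusted p = 0.470, edgeR quasi-likelihood). It was higher in 3 of 3 high fat libraries than in any normal diet library, a pattern seen in 6.47% of all genes. Over all alternatives its adjusted p ran from 0.154 to 0.814, with a log2 fold change of 1.21 to 2.01. Muc2, Tff3, Zg16 and Ccl6 were lower in all 3 high fat EEC libraries than in any normal diet EEC library, a pattern seen in 8.13% of all genes, with log2 fold changes of -1.05 ± 1.04, -0.58 ± 0.85, -0.78 ± 0.86 and -0.73 ± 0.72. None of these 4 passed the test. T cell marker sums differed between the same libraries, as given above, and their part was not tested.

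In non-EEC, the answer for diet turned on 1 library. With all 12 libraries none of the 10 members was called, where 14.9% of all genes were, and none was at an unadjusted p under 0.05, where 30.9% of all genes were. DESeq2 called none either and limma-voom with quality weights called 5 higher (Muc2, Tff3, Zg16, Guca2a and Ccl6), where that tool called 19.3% of all genes higher. The fitted changes were -0.56 ± 1.03 for Muc2, -0.61 ± 1.02 for Fcgbp, -0.57 ± 1.02 for Clca1, -0.09 ± 0.86 for Zg16 and -0.31 ± 0.85 for Tff3. Without replicate 1 all 5 turned and were called higher on the high fat diet, at 2.74 ± 0.68 for Muc2 (adjusted p = 0.0108), 2.48 ± 0.68 for Fcgbp (0.0192), 2.53 ± 0.73 for Clca1 (0.0234), 2.52 ± 0.49 for Zg16 (0.00299) and 2.05 ± 0.57 for Tff3 (0.0200) by edgeR's quasi-likelihood test. Ccl6 was the sixth, at 1.65 ± 0.53 (0.0368), and 12.4% of all genes were called higher in that fit. Guca2a was higher in both fits without passing, at 1.10 ± 0.56 (adjusted p = 0.199) and 1.68 ± 0.59 (0.0534). Spink4, Spdef and Agr2 were called in neither. Leaving out normal diet non-EEC replicate 3 instead, where the summed members were lowest, called none of the 10. Of 15 enterocyte markers, 11 were called higher on the high fat diet with all 12 libraries and 15 without replicate 1. Without it their median log2 fold change was 4.71, beside 1.86 for the members, and their part was not tested.

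The denominators of the diets differed. CPM divides by all reads of a library, and T cell markers alone took 1.33% to 4.00% of the reads in normal diet non-EEC and 0.00793% to 0.0870% in high fat non-EEC. Divided by the enterocyte marker sum of the same library, the summed members were 1.52, 0.765 and 0.220 in normal diet non-EEC and 0.275, 0.0596 and 0.114 in high fat non-EEC. On that scale the high fat libraries were the lower ones, apart from replicate 1 of the high fat diet and replicate 3 of the normal diet, which crossed. In EEC the same ratio was 0.225, 0.267 and 0.139 on the normal diet and 0.305, 0.0791 and 0.260 on the high fat diet, with the groups overlapping. This ratio was chosen after the values were seen and was not tested. The share of goblet cells in a fraction was not measured.

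**Figure D3:**
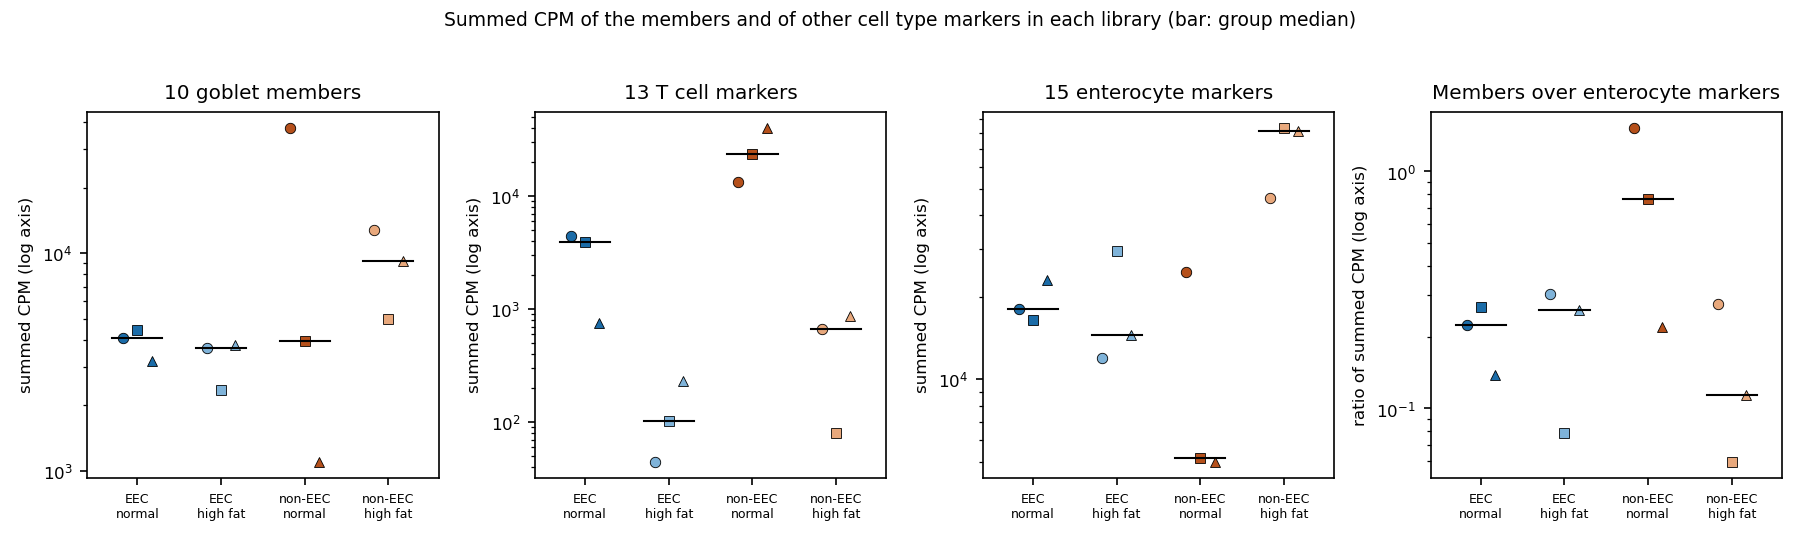
Summed CPM per library (log axes) of the 10 members, 13 T cell markers and 15 enterocyte markers, and the ratio of members to enterocyte markers, with symbols for replicates 1, 2 and 3 and a bar at the group median. T cell sums in normal diet non-EEC (13346 to 39997 CPM) lie above those of all other libraries, and enterocyte sums are highest in high fat non-EEC (46402 to 83450 CPM).

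The difference of the diet effects between EEC and non-EEC was called for none of the 10 members, where 0.497% of all genes were called. None was at an unadjusted p under 0.05, where 16.5% of all genes were. DESeq2 called none and limma-voom with quality weights called Zg16 (negative, as were 7.14% of all genes by that tool). Agr2 had the largest fitted difference among the members, 1.73 ± 0.94 (adjusted p = 0.382, edgeR quasi-likelihood), with the diet effect higher in EEC. Muc2 was at -0.49 ± 1.45, Tff3 at -0.27 ± 1.19, Clca1 at -0.29 ± 1.44, Zg16 at -0.69 ± 1.21 and Guca2a at -1.09 ± 0.78, while Fcgbp was positive at 0.38 ± 1.43. Without replicate 1, 4 members were called with a negative difference, Muc2 at -3.79 ± 0.86 (adjusted p = 0.0221), Clca1 at -3.39 ± 0.93 (0.0429), Zg16 at -3.30 ± 0.62 (0.0125) and Tff3 at -2.63 ± 0.73 (0.0466), where 4.93% of all genes were called negative. Fcgbp turned to -2.71 ± 0.86 (0.0757) and Agr2 was at 0.65 ± 0.77 (0.688). The member median was then -2.50. Of 15 enterocyte markers none was called with all 12 libraries and 15 were called negative without replicate 1, and their part was not tested.

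The ratio of Tff3 to Muc2 nearly separated the fractions, whereas the ratios of Spink4, Guca2a and Ccl6 to Muc2 overlapped. The ratio of Tff3 to Muc2 CPM was 1.23, 1.30 and 2.66 in normal diet EEC and 2.65, 0.918 and 2.76 in high fat EEC. In non-EEC it was 0.300, 0.558 and 0.923 on the normal diet and 0.280, 0.345 and 0.587 on the high fat diet. The ranges of the fractions overlapped at a single pair of libraries. The ratio of Clca1 to Muc2 stayed within 0.630 and 1.01 over all 12 libraries, and Fcgbp to Muc2 within 2.04 and 5.58. Agr2 made up 10.4%, 4.76% and 11.3% of the summed members in normal diet EEC and 26.8%, 21.6% and 40.1% in high fat EEC. In non-EEC its share was 2.54% to 14.9%, a range that holds the normal diet EEC values. These ratios were picked after the values were seen and are given without a test.

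**Figure D4:**
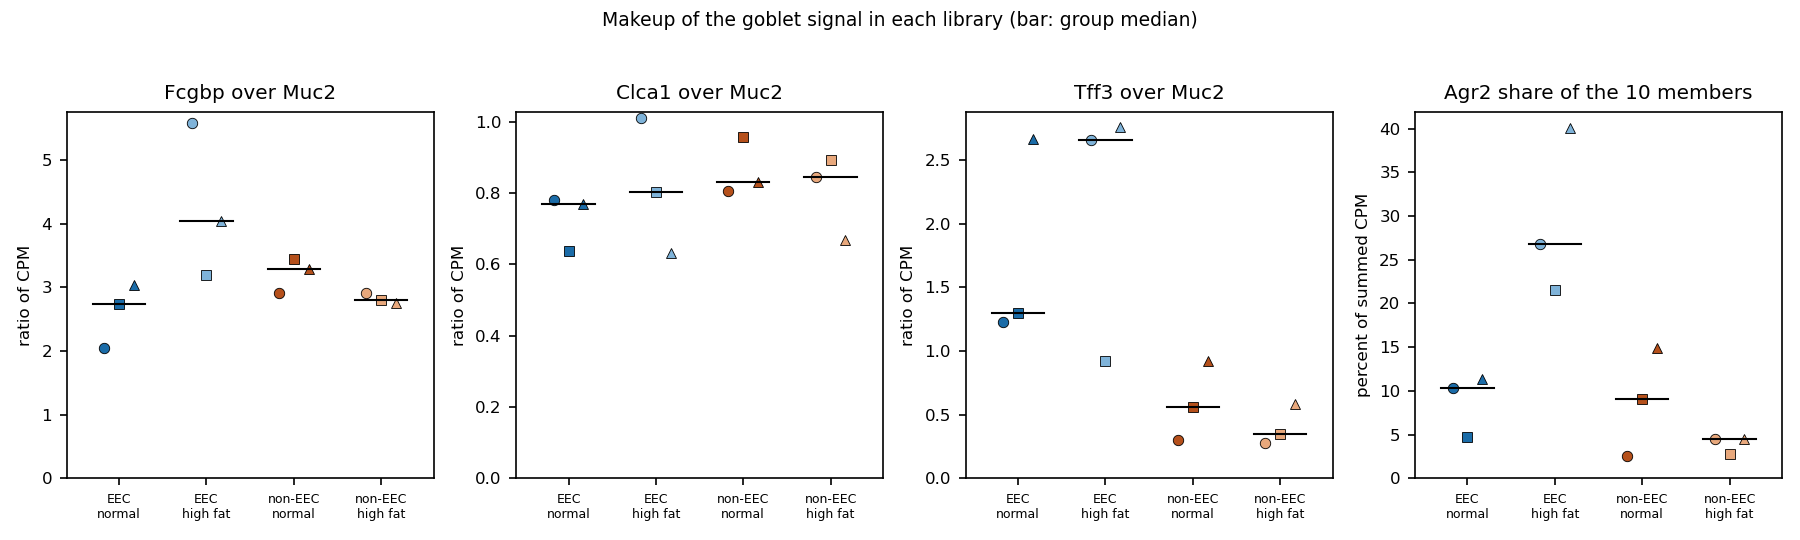
Ratios of Fcgbp, Clca1 and Tff3 to Muc2 in CPM and the percent of the summed members that is Agr2, for each library (symbols for replicates 1, 2 and 3, bar at the group median). Clca1 over Muc2 lies between 0.630 and 1.01 everywhere, while Tff3 over Muc2 reaches 2.76 in EEC and at most 0.923 in non-EEC.

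Per kilobase of exon, which allows genes to be compared, Tff3 was the highest member in EEC, with a median of 1243 CPM per kb over 6 libraries (428 to 1466). Zg16 followed at 462 (259 to 673), then Agr2 at 360 (163 to 1172) and Spink4 at 179 (98.5 to 339), each overlapping its neighbour. This order pools the diets: on the normal diet Zg16 (483 to 673) was above Agr2 (163 to 327), and on the high fat diet Agr2 (392 to 1172) was above Zg16 (259 to 440) in each of the 3 libraries. Guca2a (93.1), Fcgbp (91.8), Clca1 (54.0) and Muc2 (33.0) came next, again with overlapping ranges. In non-EEC the order was Zg16 at 1440 (283 to 6310), Tff3 at 771 (144 to 3411), Spink4 at 366, Agr2 at 301, Fcgbp at 216, Guca2a at 175, Clca1 at 165 and Muc2 at 115, and no neighbours in this order were apart beyond their ranges. Ccl6 (7.47 in EEC and 24.3 in non-EEC) and Spdef (1.70 and 3.04) were the lowest in both fractions, and in EEC neither overlapped its neighbour above. Although Fcgbp had the most counts of all members in 8 of 12 libraries, its exons of 10497 bases place it in the middle of the per-length order.

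Correlations between members were higher in the non-EEC libraries than in the EEC libraries for the median pair, a difference that was not tested. Over 45 pairs of members, Pearson r of log2 CPM had a median of 0.909 in the 6 non-EEC libraries (0.491 to 0.999) and of -0.09 in the 6 EEC libraries (-0.87 to 0.943). Without replicate 1, the median over 5 non-EEC libraries was 0.885. The points of each fraction share depth and diet, and these values are a description. In EEC, Muc2, Clca1 and Fcgbp kept together (Muc2 with Clca1 0.943), and Agr2 was opposed to Ccl6 and Muc2 (-0.59 with Muc2).

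**Figure D5:**
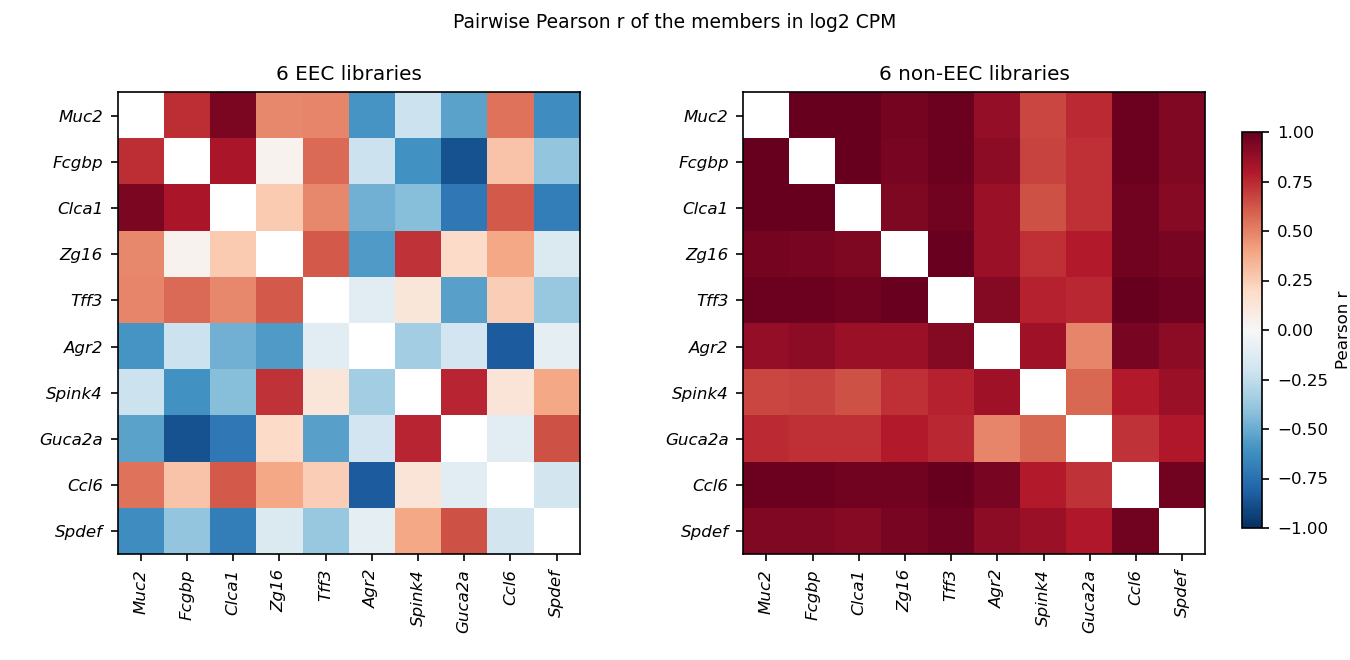
Pairwise Pearson r of the 10 members in log2 CPM over the 6 EEC libraries (left) and the 6 non-EEC libraries (right), red for positive and blue for negative values, with the diagonal left blank. Every pair is positive on the right (0.491 to 0.999), while pairs with Agr2, Guca2a or Spdef are mostly blue on the left.

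The named genes outside the members whose log2 CPM followed Muc2 most closely over the 12 libraries, among 9988 genes ranked, were Fer1l6 (r = 0.947), Capn9 (0.946), Ano7 (0.936), Lypd8 (0.925), Reg1 (0.904), Ppard (0.883), Scnn1a (0.878) and Gsta4 (0.874). Fer1l6 encodes a ferlin family membrane protein and Capn9 a calpain protease of the digestive tract, and Lypd8 encodes a protein shed by enterocytes that binds flagellated bacteria. Without the 2 libraries farthest from the median Muc2 level, normal diet non-EEC replicates 1 and 3, r was 0.957 for Fer1l6, 0.878 for Capn9 and 0.727 for Ppard. Of the members, Clca1 (0.992), Fcgbp (0.981), Zg16 (0.921) and Ccl6 (0.914) followed Muc2 most closely. Agr2 (0.270) was farthest among the 8 other members in this ranking, which asked for a mean of at least 10 CPM and so left out Spdef. Without the 2 libraries Tff3 fell from 0.720 to 0.265 and Agr2 to -0.29. The unnamed identifiers ENSMUSG00000094393 (0.994) and ENSMUSG00000095400 (0.992) also ranked above Fer1l6.

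Genes that act before and during mucus production were taken from lists, and calls are read against 13.8% of all genes higher and 7.80% lower in EEC over both diets. Of 10 goblet fate factors, 3 were higher and 1 was lower, with a median log2 fold change of 0.60. Foxa1, a forkhead factor of secretory cells, had 93.8 to 279 CPM in the 6 EEC libraries and 2.79 to 18.3 in the 6 non-EEC libraries (3.66 ± 0.41, adjusted p = 4.66e-05, edgeR quasi-likelihood). Foxa2, its close relative, was higher by 3.43 ± 0.50 (adjusted p = 0.000300) and Creb3l1, a membrane-bound factor of secretory cells, by 1.22 ± 0.37 (0.0327). Gfi1, a zinc finger factor of secretory progenitors that lymphocytes also express, was lower at -2.15 ± 0.72 (0.0496). It was at 28.9 to 156 CPM in normal diet non-EEC, where the T cell markers were highest, and at 0.464 to 8.60 in high fat non-EEC. Atoh1, the factor that opens the secretory lineage, was at -1.74 ± 0.72 (0.107) and at -0.47 without replicate 1 (0.591). Gfi1 and Atoh1 are named here after their values were seen. Klf4, a factor of goblet cell differentiation, was higher on the high fat diet in non-EEC, as were 5.76% of all genes, at 2.31 ± 0.61 (0.0245), with 24.9 to 80.6 CPM on the normal diet and 96.1 to 215 on the high fat diet.

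Few enzymes that glycosylate mucins were called between the fractions with all 12 libraries. Of 20 tested (22 listed), 1 was higher and 2 were lower in EEC, with a median of -0.07. Without replicate 1, 5 of the 20 were higher and 2 were lower, where 14.4% of all genes were higher. Between the diets in non-EEC, 1 of the 20 was higher and 1 lower on the high fat diet with all 12 libraries. Without replicate 1, 10 were higher and 1 was lower, with a median of 1.06, where 12.4% of all genes were higher. The part of the enterocyte markers in this was not tested. Fut2, the fucosyltransferase of secreted glycans, was higher at 3.61 ± 0.82 (adjusted p = 0.00668, edgeR quasi-likelihood), with 12.1 to 84.2 CPM in EEC and 0.389 to 17.5 in non-EEC. St3gal1, a sialyltransferase, was lower at -1.72 ± 0.30 (0.00117). Gcnt1, a core branching enzyme that lymphocytes also use, was lower at -2.39 ± 0.69 (0.0243), and it was also lower on the high fat diet in non-EEC at -4.15 ± 1.03 (0.0187), from 46.8 to 140 CPM down to 0.650 to 8.20. Of 19 genes of folding and the unfolded protein response, 2 were higher and none was lower in EEC, with a median of 0.33. Atf6, a sensor of unfolded proteins, had 267 to 502 CPM in EEC and 82.4 to 168 in non-EEC (1.52 ± 0.25, 0.000674). Dnajc10, a disulfide reductase, was higher at 1.16 ± 0.27 (0.00804). Dnajb9, a chaperone partner, was higher on the high fat diet in non-EEC at 1.22 ± 0.37 (0.0405).

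Of 18 genes of granule release tested (19 listed), 2 were higher and 4 were lower in EEC, with a median of -0.55. Rab3d, a granule GTPase, was higher at 2.56 ± 0.49 (adjusted p = 0.00225, edgeR quasi-likelihood). Fer1l6 was lower at -2.42 ± 0.64 (0.0162), with 3.14 to 24.8 CPM in EEC and 6.03 to 144 in non-EEC, and at -1.18 without replicate 1 (0.0362). Unc13d, a priming factor that cytotoxic lymphocytes also use, was lower on the high fat diet in non-EEC at -2.10 ± 0.45 (0.0101). Of 18 other goblet markers tested, 4 were higher and 1 was lower in EEC, with a median of -0.57. Atp2c2, a calcium pump of the Golgi, was higher at 2.04 ± 0.52 (0.0125) and Ccl9, a chemokine, lower at -1.22 ± 0.37 (0.0290). Tff2, another trefoil gene, was called higher on few reads, 0.122 to 0.943 CPM in EEC and 0 to 0.0859 in non-EEC. No gene of these 5 lists was called for diet in EEC, in a comparison where edgeR called 0 genes. Leaving out replicate 1 moved some of these fold changes by more than 1.5 times without ending a call: Foxa2 was then at 4.07, Fut2 at 5.14 and Atp2c2 at 2.65 between the fractions, and Klf4 at 3.14 between the diets in non-EEC. The T cell sums given above were lower in high fat non-EEC, as were Gcnt1 and Unc13d, while Klf4 and Dnajb9 were higher. The part of the T cells in these 4 results was not tested.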

How the data were processed

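RNA was measured in 12 libraries by sequencing after cDNA synthesis with the Ovation RNA-Seq System V2. The authors deposited raw counts per Ensembl gene, 1 column per library. The submitters' processing notes list HTSeq 0.5.4p3 and TopHat2 2.0.10, with Bowtie2 2.1.0, CASAVA 1.8.2 and build mm10. How strand was treated, which annotation was counted and in which mode is not given in the sources used here. Symbols, positions and exon lengths came from GENCODE vM21 for 37607 identifiers (96.2%).

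Counts were filtered with filterByExpr (17087 genes kept), scaled with TMM factors and fitted as 4 group means over 12 libraries with 8 residual degrees of freedom in edgeR 4.0.16 (R 4.3.3). The quasi-likelihood test was adjusted by Benjamini-Hochberg over all 17087 genes, with calls under 0.05, and the common biological coefficient of variation was 0.536. CPM used total counts, and 1 CPM corresponds to 9.54 to 29.1 counts. The code was tested on simulated data. Comparisons that share libraries are not independent, and the 2 diet comparisons and the fraction comparisons draw on the same 12 libraries. Alternatives were DESeq2 1.42.0, limma-voom with quality weights (limma 3.58.1), upper quartile or RLE factors, 2 other filters (none, or at least 5 CPM in 3 libraries), robust estimation, a fit to the compared groups alone, each library left out and a block on replicate number.

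The members and lists were chosen with earlier results of these data known. Named were all members and, from each list, up to 3 called genes with the smallest p in EEC against non-EEC over both diets and up to 1 in each diet comparison. The 8 named genes with the highest r to Muc2 (log2 CPM with a prior count of 2, mean of at least 10 CPM) were also named. Of the genes named from the lists, 1 is not reported here.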

Additional observations from a re-analysis of the deposited data

How the results depend on the processing

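With 3 libraries per group and a coefficient of variation of 0.536, a p that misses the threshold does not show equal levels. Over 55 results, 1138 alternative values were computed: 980 kept direction and side of the threshold, 52 lost a call, 48 gained one and 58 turned. Of the 55 results, 35 never turned. The 55 leave out Guca2a and Spdef for diet in EEC, and Spink4, Spdef and Ccl6 for the difference of diet effects. Among those left out, Guca2a and Spdef for diet in EEC and Spdef for the difference turned in some alternatives. Spdef, at 4 to 190 counts, is limited by depth.

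The number of members called between EEC and non-EEC over both diets (6 in the report) was 0 with the replicate block and 4 with voom, and 2 to 7 when 1 library was left out. On the normal diet (0) DESeq2 gave 1 and leaving out 1 library gave 0 to 2. On the high fat diet (1) it was 2 with RLE factors, 5 with no filter, 2 with at least 5 CPM in 3 libraries, 5 with DESeq2, 6 with voom, 6 with only the groups compared, 2 with the replicate block, and 0 to 6 leaving out 1 library. For diet in non-EEC (0) it was 5 with voom and 0 to 6, and for the difference of diet effects (0) 1 with voom and 0 to 4. For diet in EEC it stayed at 0 in every alternative. The number of all genes called also changed with the setting, on the high fat diet from 1226 to 4385 in either direction. These counts are therefore not read as a result on the members. The causes were not tested.

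Over both diets Tff3 turned to 0.62 with voom and 0.50 with the replicate block. On the normal diet Muc2 turned to 0.23 with voom. For diet in non-EEC, voom turned Muc2 to 1.83, Tff3 to 1.50, Fcgbp to 1.54, Clca1 to 1.51, Zg16 to 2.11, Agr2 to 0.47 and Ccl6 to 1.14, and the replicate block turned Muc2 to 0.55, Tff3 to 0.35, Fcgbp to 0.40, Clca1 to 0.54, Zg16 to 0.43 and Ccl6 to 0.34. For the difference of diet effects Fcgbp turned to -1.88 with voom and -1.59 with the replicate block.

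Among the 55 results, leaving out 1 library at a time gave a range that includes both directions in these cases. Over both diets Tff3 ran from -0.36 to 1.06. On the normal diet Muc2 ran from -2.70 to 1.10, Tff3 from -0.46 to 2.37, Fcgbp from -2.97 to 0.63, Clca1 from -2.86 to 0.74, Zg16 from -2.57 to 0.51 and Agr2 from -0.91 to 0.54, and on the high fat diet Tff3 ran from -0.59 to 0.0737. For diet in non-EEC Muc2 ran from -1.08 to 2.74, Tff3 from -0.80 to 2.05, Fcgbp from -1.14 to 2.48, Clca1 from -1.10 to 2.53, Zg16 from -0.57 to 2.52, Agr2 from -0.48 to 0.98, Spink4 from -0.41 to 0.64, Spdef from -0.29 to 1.01 and Ccl6 from -0.56 to 1.65. For the difference of diet effects Tff3 ran from -2.63 to 0.19, Fcgbp from -2.71 to 0.87 and Clca1 from -3.39 to 0.20.

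Over all alternatives, the genes called among all 17087 numbered 2793 to 5556 over both diets, 954 to 5140 on the normal diet, 1226 to 4385 on the high fat diet, 0 to 465 for diet in EEC, 1007 to 6929 for diet in non-EEC and 0 to 2183 for the difference. Same-numbered EEC and non-EEC libraries had correlated deviations in 5 of 6 pairs (r over 0.1, with all 6 from -0.01 to 0.247). Of 12 libraries, 10 correlated best with their own number. Libraries of a diet share mice, but which ones is only hinted at by the data, so the numbers were not taken as pairs. The main fit does not take the sharing of mice into account.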

Other observations

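Guanylin belongs to a signalling axis with a related ligand, a receptor and effectors. Guca2b, which encodes the related ligand uroguanylin, was higher on the high fat diet in non-EEC, with 82.6 to 360 CPM on the normal diet and 436 to 2580 CPM on the high fat diet (log2 fold change 3.22 ± 0.84, adjusted p = 0.0229 by edgeR's quasi-likelihood test). Of 6 genes for the receptor and effectors of guanylin, 3 were higher on the high fat diet in non-EEC and none was lower, where 5.76% of all genes were called higher. Without normal diet non-EEC replicate 1, 5 of the 6 were called higher, where 12.4% of all genes were, with Prkg2 at 3.63 and Gucy2c at 3.09. Guca2b, which is not among the 6, was then at 4.03. Prkg2, a kinase activated by cyclic GMP, rose from 8.69 to 64.6 CPM to 115 to 177 CPM (2.57 ± 0.63, 0.0181), and Gucy2c, the receptor, named after its values were seen, rose from 18.1 to 172 CPM to 221 to 324 CPM (1.96 ± 0.62, 0.0482). In EEC against non-EEC over both diets, 2 of the 6 were lower, where 7.80% of all genes were: Cftr, the chloride channel, at -1.58 ± 0.43 (0.0193) and Slc9a3r1, a scaffold of the brush border, at -1.14 ± 0.33 (0.0246). Without normal diet non-EEC replicate 1 these 2 were still lower. Gucy2c was then called higher in EEC, at 1.51 ± 0.33 (0.00542, edgeR quasi-likelihood), where 14.4% of all genes were. Enterocyte marker sums moved the same way between the diets in non-EEC, from 4995 to 24674 CPM up to 46402 to 83450 CPM, and their part in these results was not tested.

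Of 8 other mucin genes tested (12 in the table), 3 were higher in EEC and none was lower over both diets, where 13.8% of all genes were higher and 7.80% lower. Muc4, a transmembrane mucin, had 329 to 434 CPM in the 6 EEC libraries and 15.6 to 138 CPM in the 6 non-EEC libraries (2.28 ± 0.44, adjusted p = 0.00242, edgeR quasi-likelihood). Muc3a had 216 to 371 CPM in EEC and 8.95 to 131 CPM in non-EEC (2.25 ± 0.49, 0.00547; 2.96 without normal diet non-EEC replicate 1). Muc20 had 2.59 to 9.55 CPM and 0.226 to 2.58 CPM (2.25 ± 0.54, 0.00957). Muc13, a transmembrane mucin named after its values were seen, was at 765 to 1239 CPM in EEC and 174 to 1886 CPM in non-EEC, with a log2 fold change of -0.19 ± 0.47 that turned to 0.54 ± 0.31 without normal diet non-EEC replicate 1, neither called.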
